A study of Rattus norvegicus with 15 samples.

Results

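The transcripts described here are those of 8 enzymes of the short-chain steroid dehydrogenase and steroid reductase families in rat liver. They were chosen by gene name: Hsd17b2, Hsd17b4, Hsd17b10, Hsd17b11, Hsd17b12, Hsd17b13, Hsd11b1 and Srd5a1, 8 of 26403 genes in the table, each present on 1 row. Hsd17b2 leads the list because its difference between gap-matched and sedentary rats was already known, so all of its values are given as a description, with no test. Of the 8 members, 7 had values above 0 and passed the filter of a mean of at least 1 FPKM, and Hsd17b10 was listed at 0 in every library.

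The samples are 15 livers of Wistar rats in 3 groups of 5, all taken on the first day of weight regain, after 24 hours of refeeding that followed weight loss and its maintenance. Exercised rats had run on a treadmill during weight loss and maintenance and were refed ad libitum. Gap-matched rats had been sedentary and were refed an energy gap-matched diet, which the labels do not define further. Sedentary rats had not exercised and were refed ad libitum. Sex, age and body weight were not given in the labels, and neither was a statement that each library came from a separate animal, so p-values measure the spread between these samples only. The study's title concerns regular exercise and hepatic lipogenesis in early weight regain.

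Steroid dehydrogenases move hydrogen between a steroid and a pyridine nucleotide, and so switch a hormone between an active and an inactive form at the site where it acts. In liver, Hsd17b2 oxidises estradiol and testosterone to the weaker estrone and androstenedione, Hsd11b1 regenerates active glucocorticoid from its inactive 11-keto form, and Srd5a1 reduces testosterone and other steroids at the 5-alpha position. Other members of the 17-beta family work mainly on lipids: Hsd17b4 is the D-bifunctional enzyme of peroxisomal beta-oxidation, Hsd17b12 the ketoreductase of very long chain fatty acid elongation, Hsd17b10 a mitochondrial enzyme of isoleucine breakdown and a subunit of mitochondrial RNase P, and Hsd17b11 and Hsd17b13 are proteins of the lipid droplet surface.

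FPKM are fragments scaled to transcript length and to the mapped fragments of the library, which makes levels comparable between genes. The number of reads was not given. The libraries had 0.678 to 1 times the depth of sedentary replicate 1, taken from the commonest ratio between 2 libraries over genes with a mean under 0.3 FPKM, which is an estimate. Correlations of log2 values within a group lay between 0.967 and 0.984, no 2 libraries were identical, and hepatocyte markers were high in every library, with summed levels of 41698 to 52944 FPKM in exercised, 45161 to 48187 FPKM in gap-matched and 39406 to 51041 FPKM in sedentary rats. Cyp2c11, a cytochrome P450 of male rat liver, lay between 1579 and 3094 FPKM in all 15 libraries. Each difference is one of log2(FPKM + 1) and is given with its standard error, from limma fitted to 11216 genes, and FPKM are means ± SD with n = 5 per group. A gene passed at a Benjamini-Hochberg adjusted p under 0.05.

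Hsd17b2 was the most abundant member in gap-matched rats and the third in sedentary rats. The exercised libraries held 374, 268, 553, 352 and 558 FPKM of Hsd17b2 in replicates 1 to 5. In gap-matched libraries the values were 1022, 576, 653, 576 and 726 FPKM. In sedentary libraries they were 219.8, 233, 340, 364 and 204 FPKM. All 5 gap-matched libraries lay above every sedentary library and also above every exercised library, where the nearest values were 576 FPKM in a gap-matched and 558 FPKM in an exercised liver. The exercised libraries overlapped with the sedentary ones, and 3 of 5 exceeded the highest sedentary value. Of all genes tested, 1.47% were higher in gap-matched than in sedentary rats with no overlap, and 1.04% were lower in exercised than in gap-matched rats with no overlap. These shares are background only, since Hsd17b2 was chosen with such a difference known.

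Hsd17b2 averaged 421 ± 129 FPKM in exercised, 710.5 ± 185 FPKM in gap-matched and 272 ± 74.2 FPKM in sedentary rats. The mean of gap-matched rats was 2.61 times that of sedentary rats, a log2 difference of 1.39 ± 0.22. The mean of exercised rats was 1.55 times that of sedentary rats, a log2 difference of 0.61 ± 0.22, and 0.593 times that of gap-matched rats, a log2 difference of -0.77 ± 0.22. These 3 differences share samples with each other. The fits with 1 library left out gave differences of 1.25 to 1.505 between gap-matched and sedentary rats. These values and the standard errors describe the samples and are not a test, since Hsd17b2 was chosen for its difference. In the gap-matched group 1 library, replicate 1, held the highest value of all, and in the exercised group replicates 3 and 5 stood above the others.

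**Figure D1:**
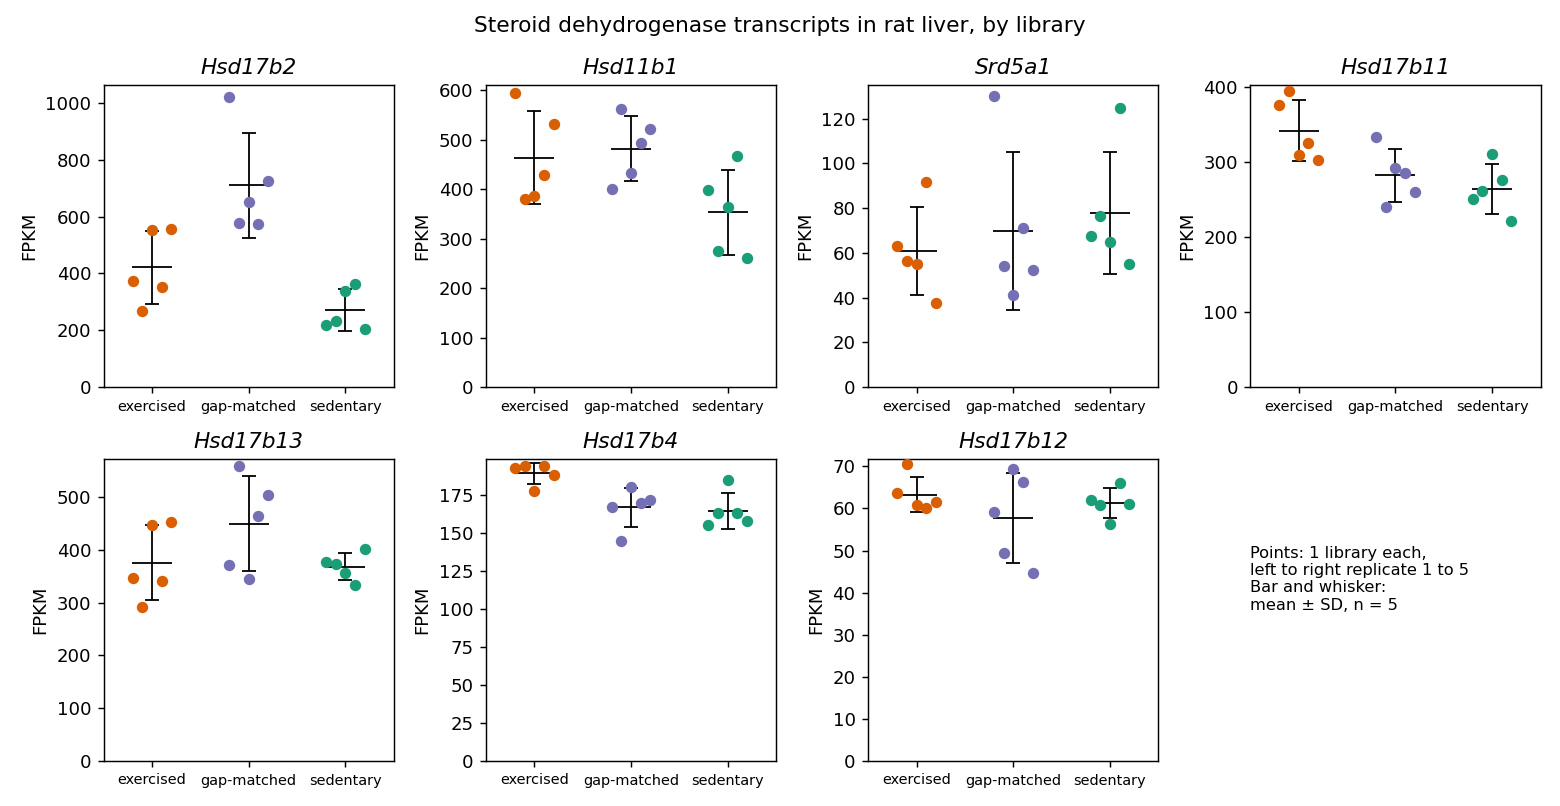
FPKM of the 7 measured members in every library, with exercised, gap-matched and sedentary rats from left to right, points for single libraries and bars for the mean ± SD of 5. The 5 gap-matched values of Hsd17b2 (576 to 1022 FPKM) lie above all others of that gene, while the groups overlap for each of the remaining 6 genes.

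Which steroid enzyme led varied between libraries. Hsd17b2 was the highest member in 2 of 5 exercised, 5 of 5 gap-matched and 0 of 5 sedentary libraries. It made up 21.7 ± 5.04% of the summed FPKM of the members in exercised, 31.8 ± 5.90% in gap-matched and 17.2 ± 2.88% in sedentary rats, a share that a common factor per library cannot alter. In sedentary rats the order by mean level was Hsd17b13, Hsd11b1, Hsd17b2, Hsd17b11, Hsd17b4, Srd5a1 and Hsd17b12. The ranges of neighbours in this order overlapped among the first 4 genes and between the last pair, and did not overlap between Hsd17b11 and Hsd17b4 or between Hsd17b4 and Srd5a1. In gap-matched rats the range of Hsd17b2 lay wholly above that of Hsd11b1, the next gene in order. Among the 11216 genes tested, the mean level of Hsd17b2 ranked 258 in exercised, 158 in gap-matched and 407 in sedentary rats, counted from the most abundant.

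**Figure D2:**
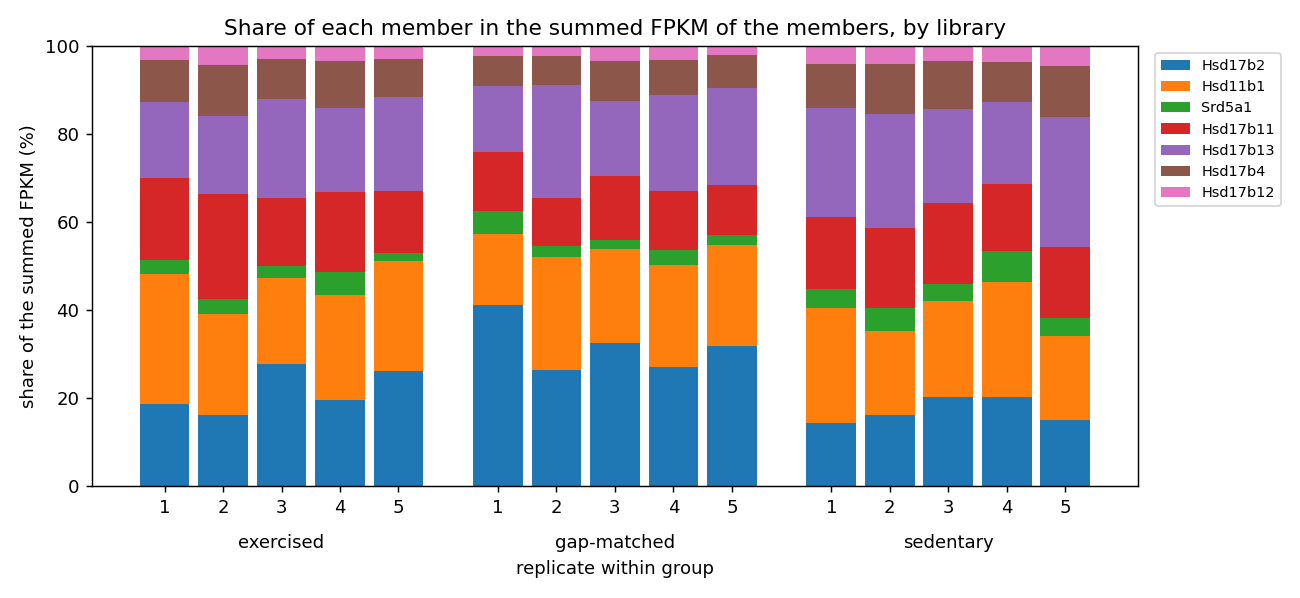
Share of each member in the summed FPKM of the 7 measured members, 1 bar per library, with exercised, gap-matched and sedentary rats from left to right. Hsd17b2, at the foot of each bar, averaged 21.7% in exercised, 31.8% in gap-matched and 17.2% in sedentary rats.

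The genes whose pattern was most like that of Hsd17b2 were sought over all 15 libraries, as the smallest root mean square difference between log2 values centred on each gene's own mean. Against a median of 0.71 log2 units over 11215 genes, the closest were ENSRNOG00000000978 (0.33), Enpp2 (0.34), Slco1a4 (0.35), Rnase4 (0.37) and ENSRNOG00000049143 (0.38). A gene that did not vary at all would stand at 0.67. The files pair the 2 identifiers with no name. Enpp2, the secreted enzyme autotaxin that makes lysophosphatidic acid, averaged 76.0 ± 10.9 FPKM in exercised, 99.0 ± 3.08 FPKM in gap-matched and 53.0 ± 12.6 FPKM in sedentary rats. Slco1a4, an organic anion uptake carrier with close paralogs that may share reads, averaged 81.4 ± 15.9 FPKM in exercised, 128 ± 13.1 FPKM in gap-matched and 59.6 ± 16.5 FPKM in sedentary rats. Rnase4, a secreted ribonuclease, averaged 2499 ± 422 FPKM in exercised, 3184 ± 370.5 FPKM in gap-matched and 1776 ± 282 FPKM in sedentary rats. These genes were selected for likeness, so their order of groups is a description.

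**Figure D3:**
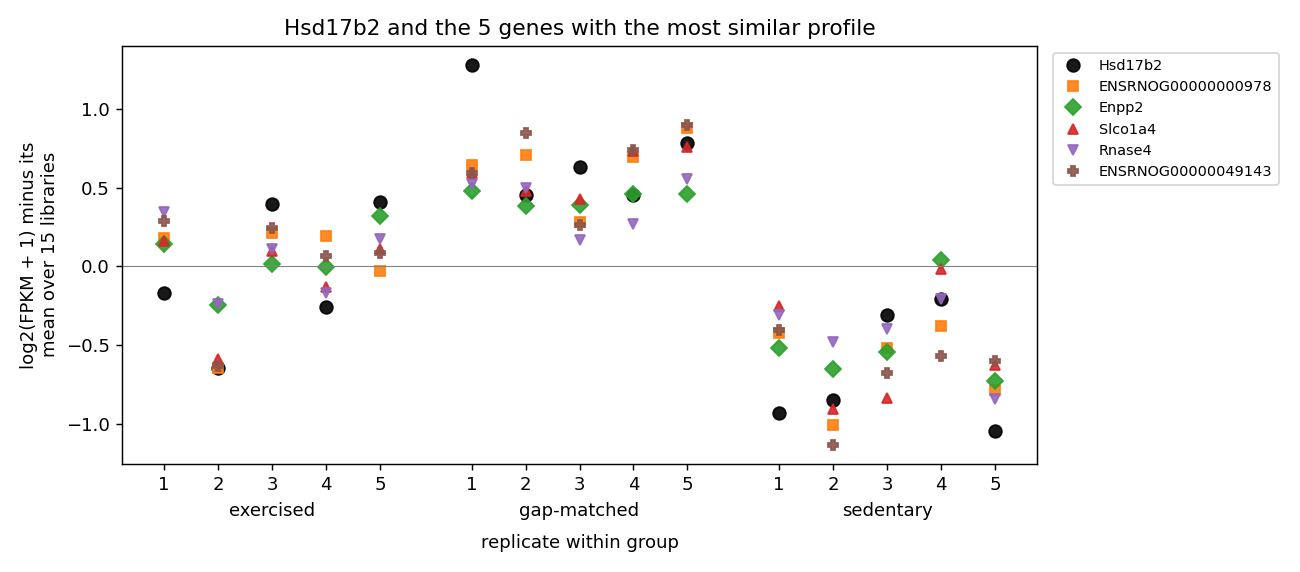
log2(FPKM + 1) of Hsd17b2 and of the 5 genes nearest to it, each minus its own mean over 15 libraries, with exercised, gap-matched and sedentary rats from left to right. All 6 genes are above 0 in every gap-matched library, and Hsd17b2 in gap-matched replicate 1 stands above the other 5 genes.

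The other 6 measured members were tested, and 0 of 6 passed in any of the 3 comparisons (limma). Between exercised and sedentary rats, 5.78% of all genes passed (2.51% higher, 3.26% lower), and 3 of the 6 members had an unadjusted p under 0.05 against 21.1% of all genes. Between gap-matched and sedentary rats 3.05% of all genes passed (0.82% higher, 2.23% lower), and 1 of 6 members had an unadjusted p under 0.05 against 17.8% of all genes. Between exercised and gap-matched rats 0.9% of all genes passed (0.687% higher, 0.214% lower), and 2 of 6 members had an unadjusted p under 0.05 against 16.5% of all genes.

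**Figure D4:**
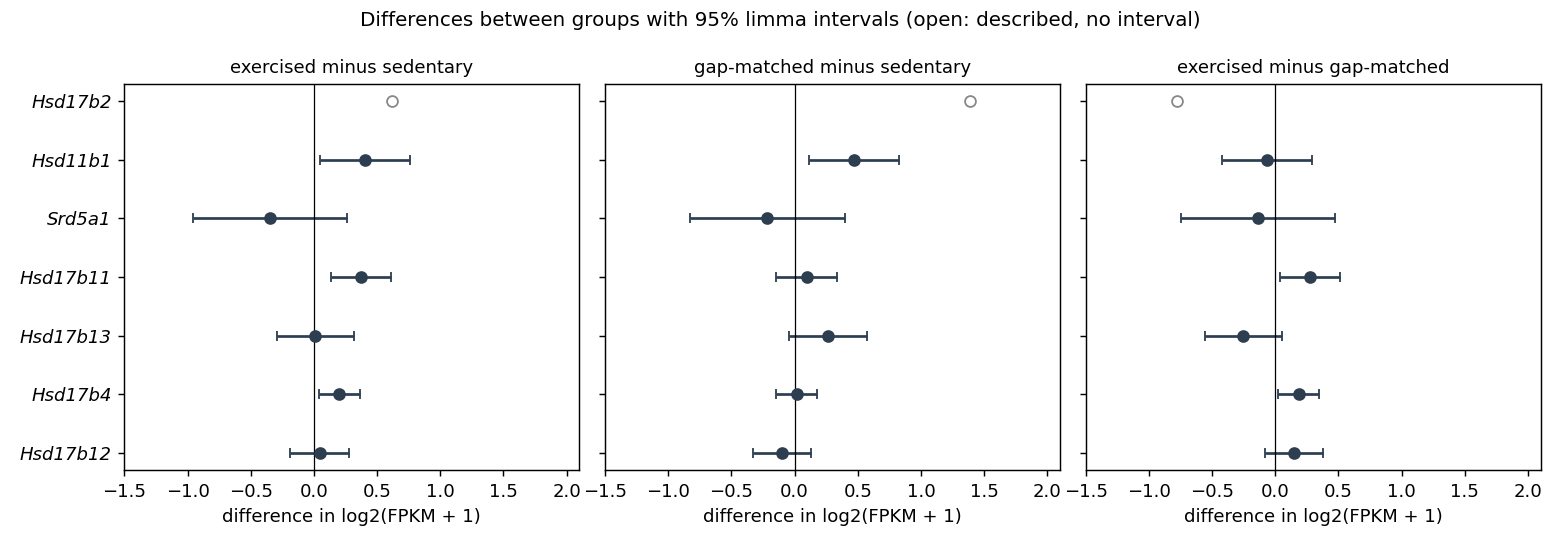
Differences in log2(FPKM + 1) between groups for the 7 measured members, 1 panel per comparison, with the unadjusted 95% limma interval for the 6 tested genes and an open point without interval for Hsd17b2. Hsd17b2 stands at 1.39 in the middle panel, where the next highest member is Hsd11b1 at 0.47.

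Hsd11b1, which reactivates glucocorticoid in the liver, was the second most abundant member in sedentary and gap-matched rats and the first in exercised rats. The exercised libraries held 594, 381, 386, 428 and 531 FPKM. In gap-matched libraries the values were 400.4, 561, 432, 493 and 522 FPKM. In sedentary libraries they were 398, 276, 364, 468 and 260.5 FPKM. Every exercised and every gap-matched library lay within or above the sedentary range, and 2 exercised and 3 gap-matched libraries exceeded its top. Hsd11b1 averaged 464 ± 94.6 FPKM in exercised, 482 ± 65.5 FPKM in gap-matched and 353 ± 86.4 FPKM in sedentary rats. The difference from sedentary rats was 0.40 ± 0.17 for exercised (limma adjusted p = 0.177) and 0.47 ± 0.17 for gap-matched rats (limma adjusted p = 0.151), and neither passed. The unadjusted 95% intervals of these differences reached from 0.05 to 0.76 and from 0.11 to 0.83. Exercised and gap-matched rats differed by -0.07 ± 0.17, with an interval from -0.42 to 0.29 (limma adjusted p = 0.872).

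Of 15 genes of glucocorticoid activation and response, all tested, 0 passed in any comparison (limma), with 4, 2 and 1 at an unadjusted p under 0.05 in exercised against sedentary, gap-matched against sedentary and exercised against gap-matched rats. The shares of all genes at an unadjusted p under 0.05 were 21.1%, 17.8% and 16.5%. The medians of the list were -0.05, 0.19 and -0.08, against 0.01, -0.03 and 0.04 over all genes. H6pd, which supplies NADPH to Hsd11b1 in the endoplasmic reticulum, averaged 65.3 ± 10.03 FPKM in exercised, 55.5 ± 6.25 FPKM in gap-matched and 49.1 ± 8.79 FPKM in sedentary rats, and differed by 0.41 ± 0.13 between exercised and sedentary rats without passing (limma adjusted p = 0.0827). The glucocorticoid receptor NR3C1 averaged 42.7 ± 4.30 FPKM in exercised, 40.8 ± 5.69 FPKM in gap-matched and 34.9 ± 7.52 FPKM in sedentary rats. Tat, a classical glucocorticoid target, averaged 596 ± 332 FPKM in exercised, 651 ± 149 FPKM in gap-matched and 771 ± 274 FPKM in sedentary rats, with overlap of all groups. Sds differed by 1.22 ± 0.40 between exercised and sedentary rats without passing (limma adjusted p = 0.0881). Zbtb16 differed by -1.43 ± 0.35 between exercised and gap-matched rats without passing (limma adjusted p = 0.0707). Klf9 differed from sedentary rats by 0.50 ± 0.20 in exercised and 0.53 ± 0.20 in gap-matched rats. Dusp1 differed by -0.67 ± 0.41 and -0.19 ± 0.41 in the same order. Hsd11b2, the oxidising counterpart of Hsd11b1 that is known from kidney, lay between 2.69 and 8.60 FPKM in all libraries.

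Srd5a1, the type 1 steroid 5-alpha-reductase, was the most variable member within groups. It held 63.1, 56.3, 54.9, 91.9 and 37.6 FPKM in exercised libraries, 130.2, 54.1, 41.2, 71.2 and 52.3 FPKM in gap-matched libraries, and 67.6, 76.6, 64.7, 125 and 55.0 FPKM in sedentary libraries. In each group 1 library stood well above the others, and the 3 groups overlapped throughout. The coefficient of variation was 32.5% in exercised, 50.8% in gap-matched and 35.3% in sedentary rats, against 3.71%, 7.86% and 7.21% for Hsd17b4 in the same order. Srd5a1 differed by -0.35 ± 0.29 between exercised and sedentary rats, by -0.21 ± 0.29 between gap-matched and sedentary rats and by -0.13 ± 0.29 between exercised and gap-matched rats (limma adjusted p = 0.541, 0.745 and 0.847). The last of these turned to 0.12 without gap-matched replicate 1 and to 0.02 without exercised replicate 5.

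Among the other enzymes that act on the 3- and 5-positions of steroids, 9 genes were tested. Between exercised and sedentary rats 0 rose and 1 fell, between gap-matched and sedentary rats 2 rose and 0 fell, and between exercised and gap-matched rats 0 passed (limma), with 3 at an unadjusted p under 0.05. The medians were 0.15, 0.20 and -0.19, against 0.01, -0.03 and 0.04 over all genes, of which 5.78%, 3.05% and 0.9% passed. In the third comparison 16.5% of all genes had an unadjusted p under 0.05. Akr1c12, an aldo-keto reductase, rose to 534 ± 65.1 FPKM in gap-matched rats, against 322 ± 76.4 FPKM in sedentary rats, by 0.75 ± 0.17 (limma adjusted p = 0.0263). Of the 10 fits without a library of either group, 6 lost this call, those without sedentary replicate 2, 3 or 5 or gap-matched replicate 2, 4 or 5, at up to an adjusted p of 0.0746, and so did the fit with a replicate block (0.0562). Hsd3b5, of the 3-beta-hydroxysteroid dehydrogenase family, rose to 89.6 ± 12.8 FPKM in gap-matched rats, against 59.1 ± 14.7 FPKM in sedentary rats, by 0.62 ± 0.15 (limma adjusted p = 0.0355). The difference between exercised and sedentary rats passed without sedentary replicate 4 alone (limma adjusted p = 0.0428, against 0.114 with all libraries). Of the 10 fits without a library of the gap-matched or sedentary group, the call between these groups held in those without sedentary replicate 3 or 4 or gap-matched replicate 5, with an adjusted p of up to 0.0962 in the others. It was also lost with no filter (0.0580), after scaling to the same sum (0.0576), in a fit of only these groups (0.0711) and with a replicate block (0.0562). Srd5a3, a reductase known from dolichol synthesis, fell to 2.501 ± 0.754 FPKM in exercised rats, against 3.98 ± 0.485 FPKM in sedentary rats, by 0.53 ± 0.14 (limma adjusted p = 0.0381). Without sedentary replicate 1, 2, 4 or 5 or exercised replicate 1 or 5 it no longer passed, at up to 0.0907, nor with no filter (0.0654) or in a fit of only these groups (0.0722). Akr1c and Hsd3b genes have close copies, between which reads may have been split. Akr1c14, the 3-alpha-hydroxysteroid dehydrogenase of rat liver, averaged 508 ± 52.3 FPKM in exercised, 554 ± 47.9 FPKM in gap-matched and 522 ± 63.1 FPKM in sedentary rats.

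Of 7 tested genes of sex steroid reception and conjugation, 0 passed in any comparison (limma), with 3, 1 and 1 at an unadjusted p under 0.05 in exercised against sedentary, gap-matched against sedentary and exercised against gap-matched rats. The shares of all genes at an unadjusted p under 0.05 were 21.1%, 17.8% and 16.5%. The medians were 0.25, 0.32 and 0.12, against 0.01, -0.03 and 0.04 over all genes. The estrogen receptor Esr1, which binds the estradiol that Hsd17b2 oxidises, ranged from 11.1 to 17.7 FPKM in exercised, from 9.10 to 17.4 FPKM in gap-matched and from 9.38 to 15.1 FPKM in sedentary rats, with overlap of all groups. Sult2a1 averaged 291 ± 105 FPKM in exercised, 325 ± 189 FPKM in gap-matched and 134 ± 43.4 FPKM in sedentary rats. Its differences from sedentary rats were 1.12 ± 0.35 and 1.15 ± 0.35, and neither passed (limma adjusted p = 0.0757 and 0.0924). Its exercised range of 195 to 470 FPKM lay above its sedentary range of 69.2 to 188 FPKM. The share of all genes with no overlap between these groups was not counted, so this separation is a description. Ugt2b17 differed from sedentary rats by -0.23 ± 0.40 in exercised and 0.53 ± 0.40 in gap-matched rats.

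The 2 lipid droplet members are neighbours on chromosome 14 with no other protein-coding gene between them in RefSeq, and each has a start site of its own. The sequences around the starts are shown to set these neighbouring paralogs side by side. The windows are RefSeq sequence of build GRCr8, not of the build named for the files, and run from 250 bases before to 50 bases after each start, at chr14:6016440-6016739 for Hsd17b11 and chr14:6056539-6056838 for Hsd17b13, both on the plus strand. Capitals mark the matches to CCAAT, to the Sp1 box GGGCGG and to the nuclear receptor half-site AGGTCA on either strand.
Hsd17b11: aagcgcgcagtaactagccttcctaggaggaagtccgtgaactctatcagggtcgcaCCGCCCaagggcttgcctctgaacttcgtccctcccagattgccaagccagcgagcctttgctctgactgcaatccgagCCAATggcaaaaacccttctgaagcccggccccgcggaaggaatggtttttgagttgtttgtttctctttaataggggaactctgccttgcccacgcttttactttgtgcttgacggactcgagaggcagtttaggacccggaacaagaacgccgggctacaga
Hsd17b13: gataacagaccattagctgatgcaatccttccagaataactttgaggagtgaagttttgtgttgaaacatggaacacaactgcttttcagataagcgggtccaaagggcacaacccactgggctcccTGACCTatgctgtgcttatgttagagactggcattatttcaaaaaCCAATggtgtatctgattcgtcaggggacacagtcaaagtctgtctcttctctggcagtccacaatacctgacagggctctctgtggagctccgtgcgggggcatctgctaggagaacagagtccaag

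Hsd17b11 has 17 CpG dinucleotides in this window and Hsd17b13 has 4, against a median of 7 over 33469 windows of the same length. Both hold 1 CCAAT, and 37.5% of all windows hold at least 1. Hsd17b11 alone of the pair holds an Sp1 box (33.1% of windows), and Hsd17b13 alone a half-site (16.2% of windows). TATAAA (14.2% of windows) and the E-box CACGTG (6.42%) matched in neither. Of the 8 members 6 had a window in the table, and Hsd17b2 and Hsd11b1 are therefore named only.

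Hsd17b11 held 376, 394, 309.7, 326 and 303 FPKM in exercised libraries, 334, 240.3, 292, 285 and 259 FPKM in gap-matched libraries, and 251, 261, 310.2, 276 and 221 FPKM in sedentary libraries. All exercised values but 2 lay above the highest sedentary value, and the gap-matched values spread over the sedentary range. The means were 342 ± 40.9 FPKM in exercised, 282 ± 35.5 FPKM in gap-matched and 264 ± 32.7 FPKM in sedentary rats. The difference of 0.37 ± 0.11 between exercised and sedentary rats had the lowest adjusted p of the 6 tested members (limma adjusted p = 0.0654). It passed without sedentary replicate 3 (limma adjusted p = 0.0408), and over all other alternatives its adjusted p ran up to 0.156. Gap-matched and sedentary rats differed by 0.10 ± 0.11, and exercised and gap-matched rats by 0.28 ± 0.11 (limma adjusted p = 0.705 and 0.239).

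Hsd17b13, a droplet protein found mainly in hepatocytes, held 346, 293, 448, 341 and 452 FPKM in exercised libraries, 372, 559.8, 345, 465 and 505 FPKM in gap-matched libraries, and 378, 373, 357, 333 and 401 FPKM in sedentary libraries. The sedentary values were close together, the exercised values lay on both sides of them, and 3 of 5 gap-matched values lay above them. Exercised and sedentary rats differed by 0.01 ± 0.14, a value that turned to -0.01 after scaling to the same sum or quantile normalization, with an unadjusted interval from -0.29 to 0.32 (limma adjusted p = 0.977). Gap-matched and sedentary rats differed by 0.26 ± 0.14, and exercised and gap-matched rats by -0.25 ± 0.14 (limma adjusted p = 0.355 and 0.396).

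Of 15 other tested genes of the lipid droplet, 1 rose and 4 fell between exercised and sedentary rats, 0 rose and 2 fell between gap-matched and sedentary rats, and 0 passed between exercised and gap-matched rats (limma), with 5 at an unadjusted p under 0.05. The medians were 0.02, -0.19 and 0.10, against 0.01, -0.03 and 0.04 over all genes, of which 5.78%, 3.05% and 0.9% passed. In the third comparison 16.5% of all genes had an unadjusted p under 0.05. Plin2, the main droplet coat protein of liver, fell to 59.1 ± 6.69 FPKM in exercised and 49.5 ± 14.7 FPKM in gap-matched rats, against 113 ± 26.3 FPKM in sedentary rats, with differences of -0.90 ± 0.20 and -1.20 ± 0.20 (limma adjusted p = 0.0144 and 0.00647). Pnpla3, a droplet-bound lipase-family protein, fell to 183 ± 43.3 FPKM in exercised and 371 ± 194 FPKM in gap-matched rats, against 958 ± 144 FPKM in sedentary rats (limma adjusted p = 0.000611 and 0.0144). Plin3, another perilipin, fell to 28.01 ± 11.7 FPKM in exercised rats, against 65.0 ± 12.7 FPKM in sedentary rats (limma adjusted p = 0.0147). Gap-matched rats lay between, at 39.6 ± 12.3 FPKM of Plin3. They did not pass against sedentary or exercised rats (limma adjusted p = 0.159 and 0.372). Mettl7a, a droplet-associated methyltransferase-like protein, rose to 91.7 ± 12.99 FPKM in exercised rats, against 56.7 ± 17.2 FPKM in sedentary rats (limma adjusted p = 0.0281). Of the 10 fits without a library of either group, the call held in those without sedentary replicate 3 or 4 or exercised replicate 3, with an adjusted p of up to 0.0783 in the others, and it was lost in a fit of only these groups (0.0522) and with a replicate block (0.0539).

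Hsd17b4, the peroxisomal bifunctional enzyme, varied little within groups. It held 192, 194, 177, 194 and 188 FPKM in exercised libraries, 167, 145, 180.1, 169 and 171 FPKM in gap-matched libraries, and 155, 163, 185, 163 and 157 FPKM in sedentary libraries. In exercised rats 4 of 5 libraries lay above the highest sedentary value and 4 of 5 above the highest gap-matched value. The means were 189 ± 7.01 FPKM in exercised, 167 ± 13.1 FPKM in gap-matched and 164.5 ± 11.9 FPKM in sedentary rats. The differences of 0.20 ± 0.08 between exercised and sedentary rats and of 0.18 ± 0.08 between exercised and gap-matched rats missed the threshold (limma adjusted p = 0.140 and 0.247). Their unadjusted intervals ran from 0.04 to 0.37 and from 0.02 to 0.35. Gap-matched and sedentary rats differed by 0.02 ± 0.08, or -0.05 after scaling to the same sum (limma adjusted p = 0.938 and 0.782).

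Of 16 tested genes of peroxisomal beta-oxidation, 3 rose and 0 fell between exercised and sedentary rats, 0 passed between gap-matched and sedentary rats (limma), with 3 at an unadjusted p under 0.05, and 1 rose between exercised and gap-matched rats. The medians were 0.11, -0.02 and 0.14, against 0.01, -0.03 and 0.04 over all genes, of which 5.78%, 3.05% and 0.9% passed. In the second comparison 17.8% of all genes had an unadjusted p under 0.05. Amacr, the racemase that prepares branched fatty acids and bile acid precursors for Hsd17b4, rose to 204 ± 37.7 FPKM in exercised rats, against 109 ± 23.3 FPKM in sedentary rats, by 0.90 ± 0.17 (limma adjusted p = 0.00608). Gap-matched rats lay between, at 150 ± 27.6 FPKM of Amacr. They did not pass against sedentary or exercised rats (limma adjusted p = 0.157 and 0.204). Decr2, the peroxisomal dienoyl-CoA reductase, rose to 55.1 ± 3.93 FPKM in exercised rats, against 41.1 ± 5.09 FPKM in sedentary rats (limma adjusted p = 0.0136). Against the 41.4 ± 2.96 FPKM of gap-matched rats Decr2 differed by 0.40 ± 0.09 (limma adjusted p = 0.0479). None of the 10 fits without a library of either group kept this call, and the adjusted p reached 0.125. It was also lost without sedentary replicate 1, 3 or 5, with no filter, with no mean trend, in a fit of only these groups, with a replicate block and under each of the 3 scalings, at 0.0542 to 0.0987. Ech1 rose by 0.49 ± 0.14 in exercised against sedentary rats (limma adjusted p = 0.0455). Of the 10 fits without a library of either group, the call held in those without sedentary replicate 3 or exercised replicate 5, with an adjusted p of up to 0.108 in the others. It was also lost without gap-matched replicate 3 (0.0554), with no filter (0.0692), after scaling to the same sum (0.0895), with no mean trend (0.0514) and with a replicate block (0.0928). Ehhadh, which carries out the corresponding steps on straight-chain substrates, differed by 0.56 ± 0.19 between exercised and sedentary rats without passing (limma adjusted p = 0.0971).

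Hsd17b12, the ketoreductase of fatty acid elongation, averaged 63.3 ± 4.25 FPKM in exercised, 57.8 ± 10.7 FPKM in gap-matched and 61.3 ± 3.48 FPKM in sedentary rats. The libraries ranged from 60.0 to 70.5 FPKM in exercised, from 44.5 to 69.4 FPKM in gap-matched and from 56.3 to 66.1 FPKM in sedentary rats, with overlap of all groups. Hsd17b12 differed by 0.05 ± 0.11 between exercised and sedentary, by -0.10 ± 0.11 between gap-matched and sedentary and by 0.15 ± 0.11 between exercised and gap-matched rats (limma adjusted p = 0.866, 0.668 and 0.522). The unadjusted interval of the first difference reached from -0.19 to 0.28. Of 8 tested partners in the elongation cycle, 1 rose and 1 fell between exercised and sedentary rats, 0 rose and 2 fell between gap-matched and sedentary rats, and 0 passed between exercised and gap-matched rats (limma), with 1 at an unadjusted p under 0.05. The medians were -0.18, -0.24 and 0.14, against 0.01, -0.03 and 0.04 over all genes, of which 5.78%, 3.05% and 0.9% passed. In the third comparison 16.5% of all genes had an unadjusted p under 0.05. Tecr, the enoyl reductase that follows Hsd17b12 in the cycle, fell to 54.4 ± 4.12 FPKM in gap-matched rats, against 72.1 ± 9.11 FPKM in sedentary rats, by 0.40 ± 0.10 (limma adjusted p = 0.0458). Of the 10 fits without a library of either group, the call held in the one without sedentary replicate 4, with an adjusted p of up to 0.111 in the others. It was also lost without exercised replicate 1, 3 or 4, with no filter, with no mean trend, in a fit of only these groups, with a replicate block, by the median of ratios and after quantile normalization, at 0.0534 to 0.0962. Elovl2, an elongase of polyunsaturated fatty acids, rose to 39.9 ± 5.70 FPKM in exercised rats, against 29.2 ± 2.997 FPKM in sedentary rats (limma adjusted p = 0.0339). Without sedentary replicate 1, 2, 3 or 5 or exercised replicate 3 or 4 it no longer passed, at up to 0.0866, nor after scaling to the same sum (0.0654) or with a replicate block (0.0657). Elovl6, an elongase of saturated fatty acids, averaged 0.850 ± 0.453 FPKM in exercised, 0.593 ± 0.312 FPKM in gap-matched and 3.68 ± 2.28 FPKM in sedentary rats. It reached the test only through the sedentary group, where it is high, so its difference is a description, although it is among the genes counted as lower in both comparisons with sedentary rats. Without Elovl6 these counts were 0 and 1.

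Hsd17b10 was listed at 0 FPKM in all 15 libraries, and this value cannot be read as a lack of the transcript. The gene is on chromosome X, where 483 of 545 protein-coding genes matched by symbol (88.6%) were listed at 0 in every library, against 1929 of 14888 autosomal genes (12.96%), with single autosomes between 7.63% and 18.4%. Of the 20 nearest matched neighbours of Hsd17b10, 10 on each side in RefSeq, 19 were listed at 0. The glycolytic enzyme Pgk1, the purine salvage enzyme Hprt1 and the ubiquitin ligase Huwe1, X-linked genes used by nearly every cell, were listed at 0 as well. Of 11 tested partners of Hsd17b10 in isoleucine breakdown and mitochondrial RNase P, 1 rose and 0 fell between exercised and sedentary rats, 1 rose and 0 fell between gap-matched and sedentary rats, and 0 passed between exercised and gap-matched rats (limma), with 2 at an unadjusted p under 0.05. The medians were 0.05, 0.07 and 0.07, against 0.01, -0.03 and 0.04 over all genes, of which 5.78%, 3.05% and 0.9% passed. In the third comparison 16.5% of all genes had an unadjusted p under 0.05. The gene that rose in both was Acadsb, the dehydrogenase of the isoleucine pathway, which averaged 41.7 ± 3.98 FPKM in exercised and 42.0 ± 5.55 FPKM in gap-matched rats, against 27.2 ± 2.35 FPKM in sedentary rats (limma adjusted p = 0.00292 and 0.00600). Both comparisons share the sedentary libraries.

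**Figure D5:**
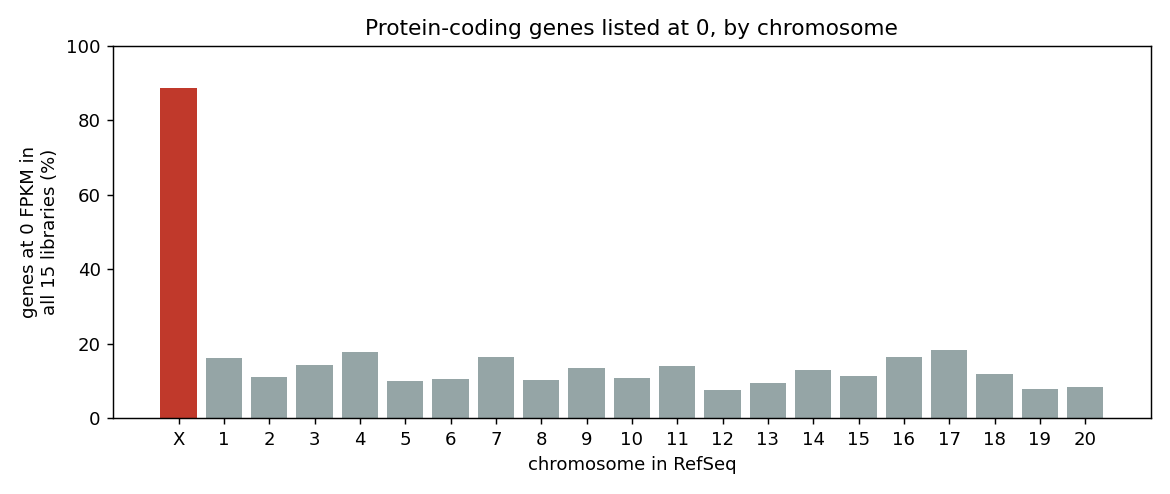
Share of protein-coding genes listed at 0 FPKM in all 15 libraries, by their RefSeq chromosome, with chromosome X at the left and the 20 autosomes after it. Chromosome X, which carries Hsd17b10, stands at 88.6%, and the autosomes lie between 7.63% and 18.4%.

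Among 7 further tested genes of the 17-beta family and its relatives, 1 rose and 1 fell between exercised and sedentary rats, and 0 passed in gap-matched against sedentary or exercised against gap-matched rats (limma), with 1 and 2 at an unadjusted p under 0.05. The medians were 0.11, -0.01 and 0.09, against 0.01, -0.03 and 0.04 over all genes, of which 5.78%, 3.05% and 0.9% passed. An unadjusted p under 0.05 (limma) was found for 17.8% of all genes in gap-matched against sedentary and 16.5% in exercised against gap-matched rats. Hsdl2, a peroxisomal protein of the hydroxysteroid dehydrogenase-like group, rose to 19.5 ± 2.90 FPKM in exercised rats, against 11.1 ± 1.38 FPKM in sedentary rats, by 0.76 ± 0.12 (limma adjusted p = 0.00296). In gap-matched rats it averaged 13.2 ± 2.496 FPKM, against which exercised rats differed by 0.53 ± 0.12 (limma adjusted p = 0.0545, not passing). It passed in that comparison without gap-matched replicate 5 (limma adjusted p = 0.0307), with a filter at 5 FPKM (0.0407) and after quantile normalization (0.0461). Hsd17b7, which reduces a keto group in cholesterol synthesis, fell to 9.75 ± 1.55 FPKM in exercised rats, against 16.6 ± 2.09 FPKM in sedentary rats, by 0.71 ± 0.15 (limma adjusted p = 0.0139). Both calls held in each of the 10 fits without a library of either group. For Hsd17b7, gap-matched rats lay between, at 12.8 ± 3.26 FPKM. They did not pass against sedentary or exercised rats (limma adjusted p = 0.205 and 0.295). Hsd17b6, known for the oxidation of androgen and retinol substrates, averaged 157 ± 26.3 FPKM in exercised, 162 ± 21.4 FPKM in gap-matched and 188 ± 38.9 FPKM in sedentary rats. Hsd17b3, the testosterone-making enzyme of testis, was listed at 0.

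Of 8 markers of steroid-producing glands in the table, 2 passed the filter, Fdx1 and Cyp17a1, and 0 of these differed by the adjusted test in any comparison (limma), with 1, 0 and 0 at an unadjusted p under 0.05. The shares of all genes at an unadjusted p under 0.05 were 21.1%, 17.8% and 16.5%. Fdx1, a mitochondrial ferredoxin that is also used outside these glands, ranged from 28.8 to 48.2 FPKM in exercised, from 31.5 to 42.7 FPKM in gap-matched and from 33.5 to 52.2 FPKM in sedentary rats. Cyp17a1, a steroid hydroxylase, ranged from 3.56 to 10.9 FPKM in exercised, from 2.98 to 11.9 FPKM in gap-matched and from 2.02 to 4.65 FPKM in sedentary rats. Star, the cholesterol carrier of steroid-making mitochondria, lay between 0.280 and 0.700 FPKM in all libraries, and Cyp11a1, which starts steroid synthesis, did not exceed 0.0567 FPKM. The summed level of the 3 erythroid markers in the table, of which Alas2 was listed at 0, ran from 705 to 1331 FPKM in exercised, from 1114 to 1673 FPKM in gap-matched and from 589 to 1233 FPKM in sedentary rats. The sum of 8 Kupffer cell markers, of which Vsig4 was listed at 0, ran from 199 to 304 FPKM in exercised, from 199 to 290.2 FPKM in gap-matched and from 122 to 251 FPKM in sedentary rats. The sum of 4 adipocyte markers ran from 16.7 to 22.9 FPKM in exercised, from 12.4 to 22.7 FPKM in gap-matched and from 13.2 to 17.2 FPKM in sedentary rats. The groups overlapped in each of these sums. Cidea, which is also among the tested lipid droplet genes, made up nearly all of the adipocyte sum. The 2 tested erythroid markers had a median difference of 0.70 between gap-matched and sedentary rats, against -0.03 over all genes. Both had an unadjusted p under 0.05, against 17.8% of all genes. The 7 tested Kupffer cell markers had a median difference of 0.37 between exercised and sedentary rats, against 0.01 over all genes. Of these 7, 4 had an unadjusted p under 0.05, against 21.1% of all genes. None of these erythroid or Kupffer cell markers passed the adjusted test in either comparison (limma). Between gap-matched and sedentary rats, the 2 tested neutrophil markers had a median of 0.60 and the 3 tested cholangiocyte markers -0.29. Cholangiocyte markers had a median of -0.36 between exercised and sedentary rats. In that comparison 1 of 8 hepatocyte markers passed as higher, against 2.51% of all genes. The 1 tested adipocyte marker, Cidea, differed from sedentary rats by 0.34 in exercised and 0.36 in gap-matched rats, without passing. In bulk tissue, fewer cells of a type and less RNA per cell cannot be told apart, and the part of these cells in the levels of Hsd17b2 was not tested.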

How the data were processed

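RNA was sequenced from 15 livers, and the authors deposited 1 table of FPKM, 1 column per library. The submitters' processing notes name Cufflinks, Trimmomatic and Rnor_5.0, a rat build, and the aligner was not given in the sources used here. Columns were matched to samples by the column name in each label. Of 26407 entries, 2 repeated identifiers and 2 genes (Alb and Slc27a2) that held the placeholder 999999999 were dropped, and 5795 genes had no name.

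Values were analysed as log2(FPKM + 1), which understates the fold of low genes. A mean of 1 FPKM or more left 11216 genes. One limma 3.58.1 fit (R 4.3.3, trend option on) held all 3 groups, and tests were two-sided, with Benjamini-Hochberg adjustment over all genes. The test was run on simulated data with independent noise for each value, which cannot show how it behaves where libraries share effects. Sums, ranges and figures used Python 3.11.15, numpy 2.4.6, pandas 2.3.3 and matplotlib 3.10.9. Chromosomes came from RefSeq (GRCr8), matched by symbol for 15433 of 19634 named genes. Read totals are unknown, so no counting intervals are given.

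The members, lists and named genes were chosen with earlier results of these data known. The named genes were the members, up to 4 genes per list and comparison with the smallest p among those that passed, and the 5 nearest profiles. H6pd, NR3C1, Tat, Hsd11b2, Akr1c14, Esr1, Ehhadh, Hsd17b6, Hsd17b3, Star, Cyp11a1, Cyp2c11, Fdx1 and Cyp17a1 were added for their role after their values had been seen. Sult2a1, Ugt2b17, Zbtb16, Sds, Klf9 and Dusp1 were also added after their values had been seen, to show how their lists varied. Alternatives were pseudocounts of 0.1 and 0.5, no filter or one at 5 FPKM, 3 scalings, a fit of only the 2 groups compared, no mean trend, a replicate block and leaving out each library.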

Additional observations from a re-analysis of the deposited data

Results flagged for a closer look

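In 5 of 81 gene and group pairs checked, 1 library stood so far from the other 4 that its gap took up more than the critical share of the group's range, and chance alone flags about 5% of groups. Hsd17b4 had 185 FPKM in sedentary replicate 3, against 155 to 163 FPKM in the other sedentary libraries. Decr2 had 46.6 FPKM in gap-matched replicate 5, against 39.0 to 41.1 FPKM in the others. Acadsb had 51.9 FPKM in gap-matched replicate 1, against 39.0 to 39.9 FPKM. Tecr had 87.7 FPKM in sedentary replicate 3, against 64.6 to 70.8 FPKM. Enpp2 had 75.1 FPKM in sedentary replicate 4, against 43.6 to 50.6 FPKM.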

How the results depend on the processing

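The count of tested members that passed stayed at 0 of 6 in all 3 comparisons under each alternative but 1, the fit without sedentary replicate 3, in which Hsd17b11 passed between exercised and sedentary rats. Leaving out 1 library gave 0 to 1 passing member between exercised and sedentary rats and 0 in the other 2 comparisons. For Hsd17b2, leaving out 1 library gave 0.50 to 0.76 (exercised minus sedentary), 1.25 to 1.505 (gap-matched minus sedentary) and -0.89 to -0.63 (exercised minus gap-matched). These ranges describe a gene chosen for its difference and are no test of it. Values near 0 changed sign: Hsd17b13 between exercised and sedentary rats was -0.0138 after scaling to the same sum and -0.00819 after quantile normalization, and -0.0610 to 0.0957 leaving out 1 library. Scaling to the same sum also turned Hsd17b4 (-0.0546) and Decr2 (-0.0526) between gap-matched and sedentary rats and Acadsb (0.0414) between exercised and gap-matched rats. Leaving out 1 library gave -0.0120 to 0.0661 for Hsd17b4 and -0.0440 to 0.0739 for Decr2 between gap-matched and sedentary rats, and -0.0482 to 0.0720 for Acadsb and -0.296 to 0.118 for Srd5a1 between exercised and gap-matched rats.

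The background counts were less stable. Of all genes, 648, 342 and 101 passed in the 3 comparisons, in the order above, and leaving out 1 library gave 342 to 645, 147 to 357 and 18 to 131. The count moved by over 1.5 times without sedentary replicate 1, 2 or 5 or exercised replicate 1 or 4 in the first comparison, without sedentary replicate 2, 3 or 5 or gap-matched replicate 1, 2, 4 or 5 in the second, and without exercised replicate 1, 2, 3 or 4 or gap-matched replicate 2, 4 or 5 in the third. Between exercised and gap-matched rats 53 passed with no filter, 34 after scaling to the same sum, 16 in a fit of only these 2 groups and 20 with a replicate block, and the cause was not tested. Between gap-matched and sedentary rats 201 passed with the block. Libraries with the same number did not deviate together (correlations of -0.27 to 0.19), and whether they share a batch or cohort was not tested. The block changed no call of a member but ended those of Elovl2, Ech1, Mettl7a, Akr1c12, Hsd3b5, Tecr and, between exercised and gap-matched rats, Decr2. Lower genes made up 56.5%, 73.1% and 23.8% of calls, but 66.1%, 83.9% and 17.6% after scaling to the same sum, 54.0%, 58.9% and 40.7% by the median of ratios and 51.6%, 59.7% and 36.6% after quantile normalization.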
